A study of Mus musculus with 4 samples.

Results

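Keratins are the intermediate filaments of epithelial cells, and each filament is built from pairs of a type I and a type II chain. In glands such as the salivary glands, basal and myoepithelial cells, which lie against the basement membrane, are known for Krt5 and Krt14, and the transcription factor p63, the product of Trp63, is required for the basal state. Luminal cells, which face the duct lumen, are known for Krt7, Krt8, Krt18 and Krt19, and cells that leave the basal layer commonly exchange the first set for the second.

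The 9 genes described here are Krt5, Krt14, Krt15, Krt17 and Trp63 as the basal set and Krt7, Krt8, Krt18 and Krt19 as the luminal set, out of 53465 genes in the count files. They were chosen by name, as known markers of the 2 layers, with earlier results of these data known. All 9 were found by symbol and all 9 passed the filter on low counts, among 16320 genes that did. The 5 type I chains are Krt14, Krt15, Krt17, Krt18 and Krt19, and the 3 type II chains are Krt5, Krt7 and Krt8.

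The mRNA came from FGF10+ sorted submandibular gland cells of C57BL/6J mice; the gland is a salivary gland with epithelial acini and ducts and a stroma of mesenchyme. There were 2 libraries from adults at postnatal day 60, given tamoxifen on days 57 and 58, and 2 from pups at postnatal day 7, given tamoxifen on days 4 and 5. All mice carried Fgf10CreERT2:Rosa26Tomato fl/fl, so that cells with active Fgf10-driven Cre at the time of tamoxifen turned on Tomato, and all received 0.1 mg of tamoxifen per g of body weight. Whether a replicate is its own animal or a pool is not stated in the labels, so the p-values cover only the spread among these libraries, which may be technical.

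Gene counts per library came to between 7289792 and 21490686. Pup replicate 1 stood apart: reads that the counting assigned to no annotated feature made up 76.7% of its reads against 9.70% to 10.6% in the other libraries. Whether these reads lay in introns or outside genes is not known, as the counting options are not given. It also had counts for 96.6% of 1106 olfactory receptor genes, which serve smell, against 1.54% to 7.78% elsewhere. The balance and the fold change of each member are therefore also given without that library. Fgf10, the gene of the sort, stood at 195 and 40.3 CPM (counts scaled to library size with TMM factors) in adults and at 27.3 and 24.1 CPM in pups.

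The question was how the basal to luminal balance of keratin RNA differed between adult and pup. By summed level, the 4 luminal genes outweighed the 5 basal genes in adults, and the basal genes outweighed the luminal ones in pups. Krt14 alone made up 69.2% and 67.0% of the basal sum in pups, and 62.1% and 61.7% in adults. Without Krt14 the luminal genes outweighed the basal ones in pups too. Levels of different genes were compared as CPM per kb of exon, which divides out gene length. The luminal sum was 2783 and 5287 CPM per kb in adult replicates 1 and 2, against 488 and 1287 CPM per kb in pup replicates 1 and 2. The basal sum was 675 and 233 CPM per kb in adults, against 1033 and 2420 CPM per kb in pups. Neither sum overlapped between the ages.

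As a share of both sums, basal RNA made up 19.5% and 4.23% in adults and 67.9% and 65.3% in pups. The log2 ratio of basal over luminal was -2.04 and -4.50 in adults and 1.08 and 0.91 in pups. The means were -3.27 ± 1.74 in adult and 0.997 ± 0.12 in pup (SD, n = 2 each), a difference of -4.27, or a 19.3-fold shift of the ratio towards luminal RNA in adult. The adults differed from each other by more than the pups did, yet each adult ratio was below each pup ratio. With Krt5 over Krt8 only, the difference was -2.10. The sign in pups depended on the genes and the scale: the log2 ratio was -3.44 and -5.88 in adults, against -0.62 and -0.69 in pups, without Krt14. As a difference of mean log2(CPM + 1) it was -2.69 and -4.63 in adults, against -0.25 and -0.59 in pups. For Krt5 over Krt8 only it was -2.86 and -5.85 in adults, against -2.45 and -2.07 in pups. Each adult stayed below each pup in these 3 settings. Without pup replicate 1 the difference over all 9 genes was -4.18, and over all libraries left out in turn it lay between -5.50 and -3.04. Because of how the 9 genes were chosen, the ratio has no p-value. In sorted bulk samples, fewer cells of a type and less RNA per cell cannot be told apart.

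**Figure D1:**
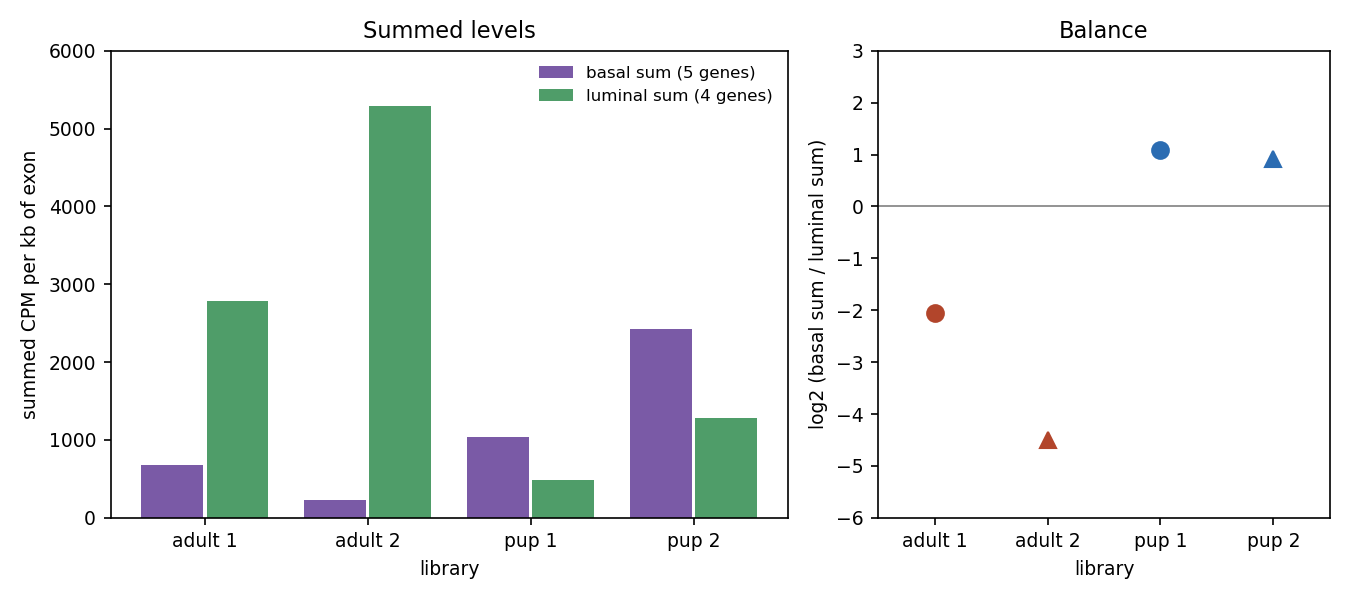
Left, summed CPM per kb of exon over the 5 basal and the 4 luminal genes in each library. Right, the log2 ratio of the basal over the luminal sum, which lies below 0 in both adults and above 0 in both pups with all 9 genes, and below 0 in both pups without Krt14 (-0.62 and -0.69).

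Single genes were tested for adult over pup with edgeR's quasi-likelihood test across all 16320 genes. No member passed a Benjamini-Hochberg adjusted p of 0.05, where edgeR called 0% of all genes tested in either direction. At an unadjusted p under 0.05 edgeR had 1 member lower in adult, Trp63, and 0 higher, where 8.49% of all genes were lower and 5.99% higher. DESeq2, run as an alternative, called Krt18 higher and Krt14 and Krt17 lower in adult, where it called 3.73% of all genes higher and 5.3% lower. Limma-voom called none, with 2 members higher and 3 lower at an unadjusted p under 0.05 against backgrounds of 7.48% and 6.13%. An exact permutation test, two-sided, cannot give a p below 0.333 with 2 libraries on each side.

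By direction, all 5 basal genes had a negative and all 4 luminal genes a positive log2 fold change with all 4 libraries, although Krt19 turned negative (-0.047) when libraries were scaled by their totals. The median was -2.03 over the basal and 1.59 over the luminal genes, beside -0.24 over all genes tested. Both adult libraries lay below both pup libraries for 4 of 5 basal genes, as they did for 27.1% of all genes. Krt15 is among them only narrowly, at 8.97 CPM in adult replicate 1 and 10.2 CPM in pup replicate 1. Of its count in pup replicate 1, 26.3% was expected from the rate over olfactory receptor genes. Both adult libraries lay above both pup libraries for 3 of 4 luminal genes, as they did for 21.8% of all genes. Krt5 and Krt19 were the members whose ages overlapped. Without pup replicate 1, all 5 basal genes remained negative and 3 of 4 luminal genes positive, Krt19 being the exception (-0.56).

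**Figure D2:**
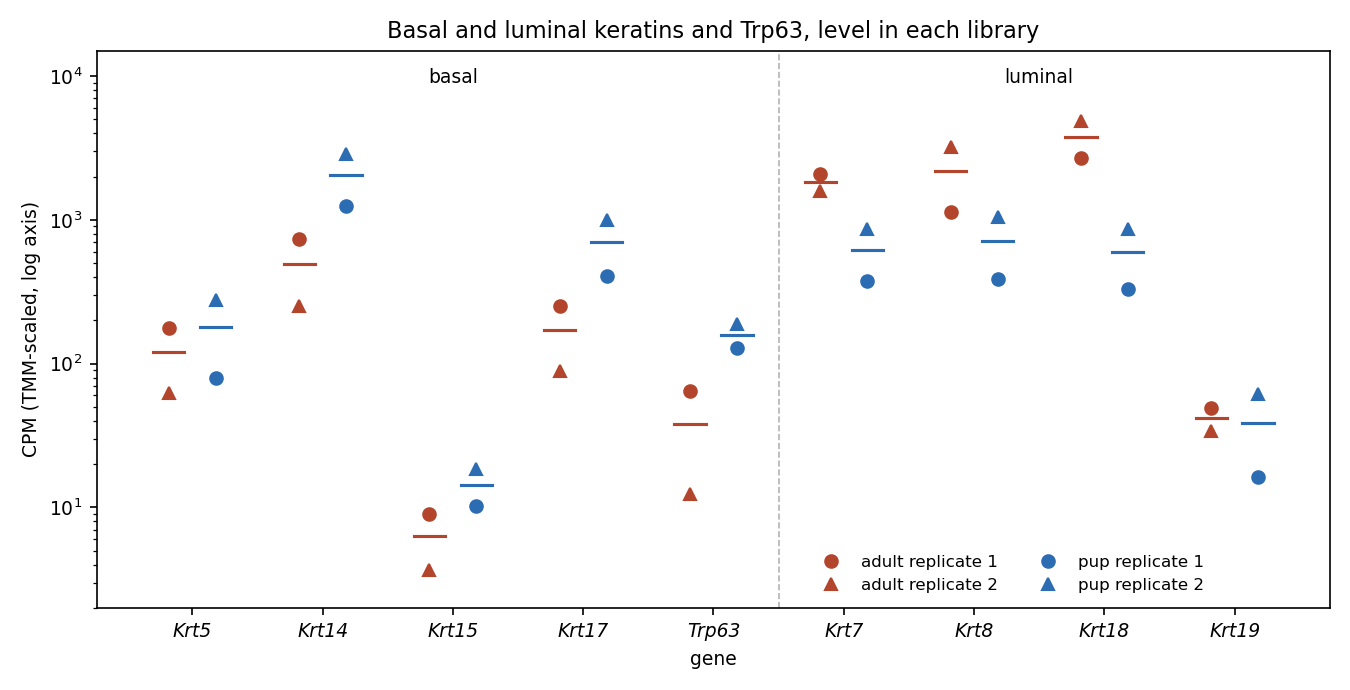
CPM of each gene on a log axis, with 1 symbol per library and a bar at the mean of each age. Adult symbols lie below pup symbols for Krt14, Krt15, Krt17 and Trp63 and above them for Krt7, Krt8 and Krt18, while Krt5 and Krt19 overlap. For Krt15, adult replicate 1 lies only narrowly below pup replicate 1.

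Krt14 (ENSMUSG00000045545, GRCm38 chromosome 11, 100203162 to 100207548, minus strand), the type I chain of basal cells, was the most abundant member per kb in both pups. It stood at 736 and 253 CPM in adults, against 1257 and 2849 CPM in pups. Both adults were below both pups, and within each age the libraries differed by 2.91-fold and 2.27-fold. The log2 fold change was -2.05 ± 1.14 (SE, 2 libraries per age; edgeR adjusted p = 0.495, DESeq2 adjusted p = 0.0355). Without pup replicate 1 it was -2.53, and it ranged from -3.05 without adult replicate 1 to -1.34 without pup replicate 2.

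Krt17 (ENSMUSG00000035557, chromosome 11, 100256217 to 100261029), a type I chain of basal and myoepithelial cells that is also induced in wounded skin, had a profile close to that of Krt14. It stood at 253 and 89.3 CPM in adults, against 405 and 992 CPM in pups. The change in log2 units was -2.03 ± 0.89 (SE; edgeR adjusted p = 0.373, DESeq2 adjusted p = 0.0455) and -2.54 without pup replicate 1. It was smaller in size when pup replicate 2 (-1.25) or adult replicate 2 (-1.47) was left out. The ratio of Krt17 to Krt14 per kb lay in a narrow range, at 0.389 and 0.400 in adults and 0.366 and 0.395 in pups.

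Among 4307 other genes with a mean of at least 50 CPM, Krt17 was the one nearest to Krt14 by profile. The measure was the Euclidean distance of centred log2(CPM + 1) over the 4 libraries, which was 0.103 for Krt17. Next came Pard6g at 0.288, Snai2 at 0.324, Fgf7 at 0.356 and Apoe at 0.403. Trp63 was 16th in that order at 0.731, Krt15, itself below 50 CPM, had a distance of 1.09, and Krt5 had 1.69. With 4 libraries such distances describe these samples only.

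Because Krt14 and Krt17 are close relatives, part of their sequence cannot assign a read. The genes lie 48.7 kb apart on chromosome 11, and their longest identical run is 71 bases, within the reading frame of both. The run and its best match in the other type I members are shown, from GENCODE vM21 transcripts on the coding strand, with capitals where a base differs from Krt14.
Krt14: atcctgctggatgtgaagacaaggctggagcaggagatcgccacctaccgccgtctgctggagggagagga
Krt17: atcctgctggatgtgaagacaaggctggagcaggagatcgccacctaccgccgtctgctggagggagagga
Krt15: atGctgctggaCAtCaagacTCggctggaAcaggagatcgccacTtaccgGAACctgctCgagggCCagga
Krt19: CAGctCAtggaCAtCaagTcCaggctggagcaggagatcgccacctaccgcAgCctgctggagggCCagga
Krt18: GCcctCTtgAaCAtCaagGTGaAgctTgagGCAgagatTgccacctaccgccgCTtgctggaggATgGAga
Krt15 and Krt19 differed from Krt14 at 15 and 14 of these bases and Krt18 at 23. Of all 50-base windows of the transcript, 14.4% in Krt14 and 3.99% in Krt17 also occur in another gene, chiefly Krt16 for Krt14 and Krt14 for Krt17. Krt16 itself had 0 counts in either adult, against 37 and 20 counts in pups. The remaining windows of each gene occur in no other gene, and the effect of the shared ones on the ratio was not tested.

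Krt5 (ENSMUSG00000061527, chromosome 15, 101707070 to 101712898), the type II partner of Krt14, overlapped between the ages. It stood at 176 and 62.4 CPM in adults, against 79.1 and 279 CPM in pups, so that each age held a high and a low library. On the log2 scale its fold change was -0.58 ± 0.81 (SE; edgeR adjusted p = 0.820), and it turned to 0.59 without pup replicate 2 and was -1.22 without pup replicate 1. It was -1.55 when adult replicate 1 was left out and -0.020 when adult replicate 2 was. Of its exon length 5.87% is shared with the antisense gene Gm44323, and 12.2% of its 50-base windows occur in other genes, chiefly Krt6a.

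Within each library the proportion of the pair was also compared. Krt14 exceeded Krt5 per kb by 5.21-fold and 5.07-fold in adults and by 19.9-fold and 12.8-fold in pups. The adults were close to each other and both were below both pups, also with pup replicate 2 taken alone. Such a ratio within a library does not depend on how libraries are scaled. It was 1 of 9 ratios computed, and none was tested.

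**Figure D3:**
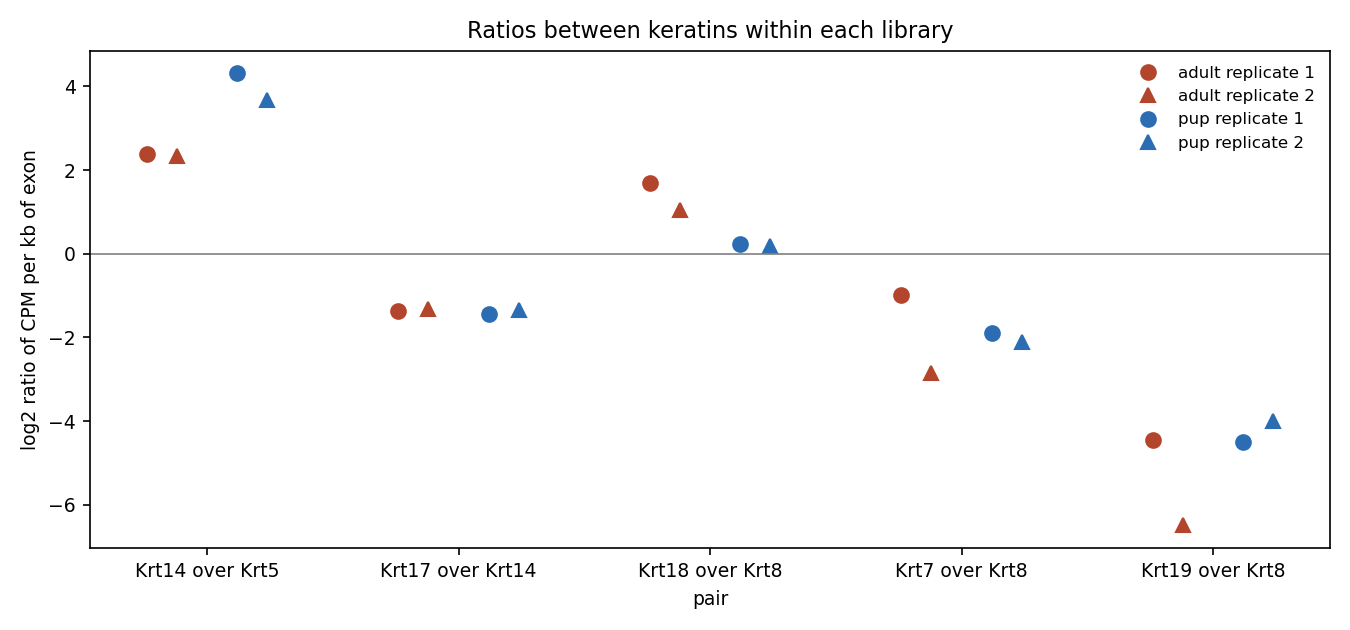
Log2 ratio of CPM per kb for 5 pairs of keratins in each library. Krt14 over Krt5 is lower and Krt18 over Krt8 higher in both adults, Krt17 over Krt14 is nearly the same in all 4 libraries, and Krt7 and Krt19 over Krt8 overlap between the ages.

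Krt15 (ENSMUSG00000054146, chromosome 11, 100131758 to 100135928), a type I chain of basal and stem-like cells of stratified epithelia, was the lowest basal keratin. It had 117 and 51 counts in adults (8.97 and 3.67 CPM) and 94 and 354 counts in pups (10.2 and 18.6 CPM). Both adults were below both pups, with adult replicate 1 close to pup replicate 1. Its log2 fold change came to -1.19 ± 1.10 (SE; edgeR adjusted p = 0.713) and -1.56 without pup replicate 1. Leaving out pup replicate 2 gave -0.69, and leaving out adult replicate 2 gave -0.68. Of the 94 counts in pup replicate 1, 24.7 were expected from the rate over olfactory receptor genes.

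Trp63 (ENSMUSG00000022510, chromosome 16, 25683763 to 25892102, plus strand), the regulator of the basal state, stood at 64.1 and 12.5 CPM in adults, against 127 and 189 CPM in pups. The adults were below the pups, but they differed from each other by 5.15-fold, the widest spread of any member within an age. The log2 fold change was -2.05 ± 0.82 (SE; unadjusted p = 0.0461 and adjusted p = 0.334, both by edgeR). It was -2.31 without pup replicate 1 and -3.71 without adult replicate 1 (edgeR adjusted p = 0.0541), against -1.30 without adult replicate 2. Of the 1178 counts in pup replicate 1, 117 were expected from the olfactory receptor rate. None of its 50-base windows occurs in another gene, and counts per gene do not separate its isoforms.

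Krt18 (ENSMUSG00000023043, chromosome 15, 102028180 to 102032027), the type I chain of simple epithelium, was the most abundant member per kb in both adults and had the largest fold change. It stood at 2701 and 4886 CPM in adults, against 330 and 861 CPM in pups. The adults were both above the pups, by 6.37-fold on the means. Adult over pup, its log2 fold change was 2.67 ± 1.34 (SE; edgeR adjusted p = 0.444, DESeq2 adjusted p = 0.000683), 2.13 without pup replicate 1 and 3.52 without pup replicate 2.

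Krt8 (ENSMUSG00000049382, chromosome 15, 101996698 to 102004482), the type II partner of Krt18, lies 23.7 kb from it, so that this type I gene sits among type II genes. Krt8 stood at 1138 and 3216 CPM in adults, against 385 and 1040 CPM in pups. The adults were above the pups, but adult replicate 1 exceeded pup replicate 2 only narrowly. The log2 fold change was 1.61 ± 1.2 (SE; edgeR adjusted p = 0.624, DESeq2 adjusted p = 0.171), 1.06 without pup replicate 1 and 0.68 without adult replicate 2. Leaving out pup replicate 2 gave 2.5. Of its 50-base windows 29.7% also occur in another gene, mostly the pseudogene Krt8-ps.

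The luminal pair was compared in the same way. Krt18 exceeded Krt8 per kb by 3.23-fold and 2.07-fold in adults and by 1.17-fold and 1.13-fold in pups. In the pups the RNA levels of the 2 chains were close to equal per kb, and both adults were above both pups. Of the 50-base windows, 29.7% in Krt8 but 0.72% in Krt18 also occur in another gene. Their effect on this ratio was not tested. Over the 8 keratins, summed type I exceeded summed type II by 2.61-fold and 1.91-fold in adults and by 4.28-fold and 3.72-fold in pups, the ages again not overlapping.

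Krt7 (ENSMUSG00000023039, chromosome 15, 101411043 to 101430313), a type II chain of ducts, differed least between the adults, at 2081 and 1593 CPM, with 373 and 866 CPM in pups. Both adults were above both pups, by 2.97-fold on the means. Its log2 fold change was 1.57 ± 1.03 (SE; edgeR adjusted p = 0.574, DESeq2 adjusted p = 0.0559), 1.08 without pup replicate 1 and 2.30 without pup replicate 2. Its exon union of 7.05 kb holds alternative transcripts, the longest coding one being 4.09 kb, so its level per kb is lower than with transcript length.

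Krt19 (ENSMUSG00000020911, chromosome 11, 100140810 to 100148665), the smallest type I keratin and a common duct marker, was low and did not separate the ages. It stood at 49.4 and 33.9 CPM in adults, against 16.2 and 61.4 CPM in pups, the adults lying between the pups. Of the 150 counts in pup replicate 1, 25.9 were expected from the olfactory receptor rate. The log2 fold change was 0.10 ± 0.71 (SE; edgeR adjusted p = 0.970) and turned to -0.56 without pup replicate 1 and -0.22 without adult replicate 1. It was 1.36 when pup replicate 2 was left out. Per kb, Krt8 exceeded it by 21.9-fold and 89.8-fold in adults and by 22.5-fold and 16.1-fold in pups. Krt19 lies 4.88 kb from Krt15, and 4 members lie within 129 kb on chromosome 11.

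**Figure D4:**
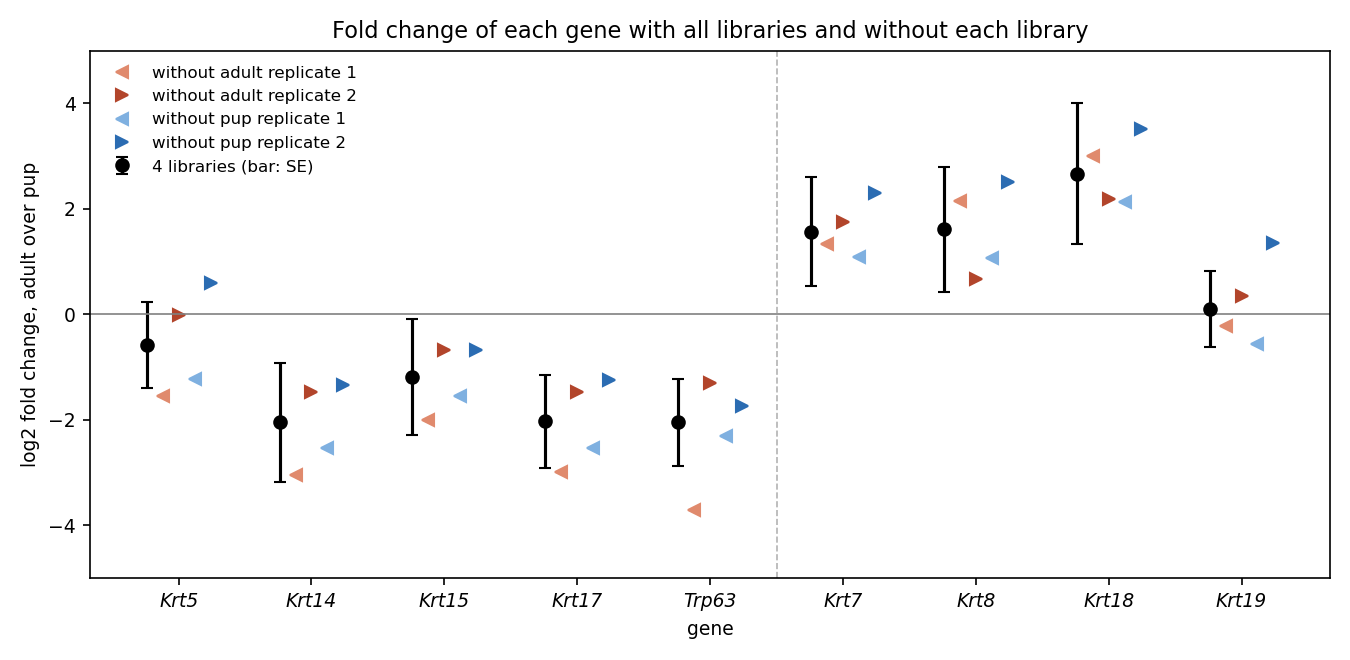
Log2 fold change of adult over pup for each gene with all 4 libraries (black, bars are the SE) and without each library in turn. Basal values other than that of Krt5 without pup replicate 2 (0.59) lie below 0, luminal values other than those of Krt19 without pup replicate 1 (-0.56) and without adult replicate 1 (-0.22) lie above 0.

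The order of the members per kb changed with age at the top and little at the bottom. Krt18 led both adults, with 1880 and 3400 CPM per kb, and Krt8 came next. Krt14 led both pups, with 715 and 1621 CPM per kb, followed by Krt17, Krt18 and Krt8. Krt15, Trp63 and Krt19 held the last 3 places in every library. In the adults the means of Krt14, at 281 ± 194 CPM per kb, and Krt7, at 261 ± 49.0 CPM per kb (SD, n = 2), did not differ beyond their spread. In the pups Krt17, at 450 ± 267, Krt18, at 415 ± 262, and Krt8, at 364 ± 237 CPM per kb (SD, n = 2), overlapped between the libraries. Within each pup they held that same order.

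For Krt8 the 5 nearest profiles among 4307 genes were those of Wnt4 at a distance of 0.448, Hes1 at 0.488, Cldn4 at 0.514, Tspan7 at 0.527 and Acvrl1 at 0.534. Cldn4 encodes a claudin of tight junctions and Hes1 a target of Notch. Krt18 was farther away, at 1.26, and Krt7 at 1.34. So no other luminal keratin was as near to Krt8 as Krt17 was to Krt14.

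Sequence before the RefSeq transcription start (GRCm38.p6) could be read for Krt5 and Krt18, at starts within 36 bases of the GENCODE gene start. The Krt5 start lies upstream of that gene start, and the Krt18 start lies 36 bases downstream of it. The last 36 bases of the Krt18 window, with its TATAA at position -19, are therefore inside the annotated gene. Both windows are shown as 1 basal and 1 luminal member of the keratin cluster on chromosome 15, the last base being the one before the RefSeq start. Capitals mark ATAAA or TATAA on the gene strand within 60 bases of the start and the p53 family half-site consensus on either strand. The Krt5 window is chr15:101712906-101713155, minus strand, and the Krt18 window is chr15:102027966-102028215, plus strand.
Krt5: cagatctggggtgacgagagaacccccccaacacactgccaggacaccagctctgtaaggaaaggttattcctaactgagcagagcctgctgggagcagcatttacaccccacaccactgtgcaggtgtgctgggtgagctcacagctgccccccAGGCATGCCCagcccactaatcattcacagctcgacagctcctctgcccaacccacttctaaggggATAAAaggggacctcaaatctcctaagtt
Krt18: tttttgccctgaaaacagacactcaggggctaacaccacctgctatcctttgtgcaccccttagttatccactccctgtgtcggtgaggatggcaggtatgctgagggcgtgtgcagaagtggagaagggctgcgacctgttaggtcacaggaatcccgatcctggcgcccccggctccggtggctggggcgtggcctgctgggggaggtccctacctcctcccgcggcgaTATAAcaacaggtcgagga
The Krt5 window holds 1 half-site, at position -95 from the start, and the Krt18 window none. Over 32851 promoters in the table, 7.13% held a half-site in the same 250 bases, 24% held ATAAA and 16.0% TATAA. The shares for ATAAA and TATAA were counted over all 250 bases and not only within 60 bases of the start. All of these are matches of letters and not measured sites.

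Genes that anchor keratin filaments were counted from lists of known members. Hemidesmosome genes, which tie basal cells to the basement membrane, had 8 of 10 log2 fold changes negative, with a median of -1.27 beside -0.24 over all genes. By edgeR 0 were called and DESeq2 called 3 lower and 0 higher, where it called 5.3% of all genes lower and 3.73% higher. Lamb3, a laminin chain, stood at 93.1 and 71.2 CPM in adults, against 224 and 471 CPM in pups (log2 fold change -2.08 ± 0.65, SE; edgeR adjusted p = 0.284, DESeq2 adjusted p = 0.00338). Itga6, the integrin chain of hemidesmosomes, stood at 202 and 183 CPM against 293 and 760 CPM, while Plec, their linker to keratin, overlapped between the ages, at 215 and 311 CPM in adults, against 229 and 362 CPM in pups.

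Desmosome genes, which join keratin filaments of neighbouring cells, had 9 of 12 tested members positive, with a median of 0.72 beside -0.24 over all genes. By edgeR 0 were called and DESeq2 called 3 higher and 0 lower, against 3.73% and 5.3% of all genes. Dsc3, a desmosomal cadherin, stood at 690 and 221 CPM in adults, against 30.5 and 40.1 CPM in pups (log2 fold change 3.69 ± 0.80, SE; edgeR adjusted p = 0.215, DESeq2 adjusted p = 8.93e-06). Perp, a desmosome protein and p63 target, overlapped at 716 and 622 CPM in adults, against 412 and 957 CPM in pups. Jup, plakoglobin, overlapped too, at 445 and 603 CPM against 217 and 491 CPM.

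Of 13 known p63 targets, 10 were negative, with a median of -1.17 beside -0.24 over all genes. EdgeR called 0 of them and DESeq2 1 higher and 4 lower, where DESeq2 called 3.73% of all genes higher and 5.3% lower. Itga3, an integrin chain, was lower in both adults, at 76.9 and 83.4 CPM against 107 and 220 CPM in pups. Of the other basal cell genes 9 were tested, of which 8 were negative, with a median of -2.39 beside -0.24 over all genes. Among these edgeR called 0 and DESeq2 5 lower, where DESeq2 called 5.3% of all genes lower. Pdpn, a membrane glycoprotein, stood at 28.1 and 32.7 CPM in adults, against 107 and 230 CPM in pups, Lgr6, a receptor of stem-like cells, at 57 and 8.64 CPM against 103 and 144 CPM, and Bcam, a laminin receptor, at 155 and 233 CPM against 106 and 248 CPM. Pdpn and Lgr6 lay lower in both adults and Bcam overlapped. Cdh3 and Jag2 are in both the p63 target list and the other basal list. Perp is also in the desmosome list and Itga3 in the hemidesmosome list, so these counts are not independent.

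Luminal and duct transcription factors were mixed, with 7 of 12 positive and a median of 0.38 beside -0.24 over all genes. Here edgeR called 0 and DESeq2 3 higher and 0 lower, against 3.73% and 5.3% of all genes. Elf3, an epithelial ETS factor, stood at 592 and 460 CPM in adults, against 33.1 and 49.0 CPM in pups, and Ehf, a related factor, at 464 and 767 CPM against 63.4 and 123 CPM. Sox9, a duct and progenitor factor, stood at 607 and 751 CPM against 171 and 364 CPM. All 12 general epithelial genes were higher in both adults than in both pups, as were 21.8% of all genes, with a median of 2.34. EdgeR called 0 of the 12 and DESeq2 10 higher, where it called 3.73% of all genes higher. Among them Cdh1, the gene for E-cadherin, stood at 1325 and 976 CPM against 308 and 667 CPM, Spint2, a protease inhibitor, at 1458 and 1178 CPM against 164 and 455 CPM, and Cldn4 at 769 and 1646 CPM against 185 and 429 CPM.

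Markers of other cells differed between the libraries as well. The 10 myoepithelial and smooth muscle markers summed to 5729 and 2718 CPM in adults, against 4823 and 15051 CPM in pups, with Oxtr at 0 counts in all libraries but pup replicate 1. Their sum ran in the same order over the libraries as Krt5, from pup replicate 2 through adult replicate 1 and pup replicate 1 to adult replicate 2. Krt14, Krt15, Krt17 and Trp63 ran in another order, with pup replicate 1 above adult replicate 1, though only narrowly for Krt15. Acta2, smooth muscle actin, stood at 2907 and 1197 CPM in adults, against 2406 and 8235 CPM in pups. Myoepithelial cells are themselves known to express Krt5, Krt14, Krt17 and Trp63, and their part in the basal values was not tested.

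The 8 mesenchymal markers summed to 1256 and 22439 CPM in adults, against 26104 and 59715 CPM in pups, none of them at 0. The 5 ionocyte markers summed to 2997 and 1682 CPM in adults, against 33.2 and 35.2 CPM in pups. The 7 acinar markers summed to 170 and 11053 CPM in adults, with 4 of them, Aqp5 included, at 0 in adult replicate 1, and to 623 and 1760 CPM in pups. The 7 endothelial markers summed to 260 and 1294 CPM in adults, with 5 of them at 0 in adult replicate 1, and to 155 and 10.1 CPM in pups. The 8 leukocyte markers summed to 24.5 and 18.2 CPM against 109 and 12.6 CPM and the 5 Schwann cell markers to 26.9 and 61.2 CPM against 89.0 and 182 CPM. Their part in the keratin values was not tested.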

How the data were processed

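The deposited values are raw read counts per Ensembl gene, 1 file per library. Tools listed in the submitters' processing notes are cutadapt 1.18, STAR 2.5.2a, HTSeq 0.11.0, R 3.5.1, DESeq2 1.20.0 and GRCm38. No source used here gives the counting options, strand setting or annotation release. Per the labels' protocols, 1 ng of RNA went into the SMART-Seq HT kit, which amplifies by PCR. HTSeq tally lines, 31.5% to 84.4% of reads, were left out. There were 2 further tables with 8 value columns matching no single sample, not used. Of 53465 genes 53360 matched GENCODE vM21.

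Counts were tested in R 4.3.3 with edgeR 4.0.16 (TMM, filterByExpr with minimum count 10 and total 15, age as the only term, Benjamini-Hochberg over all genes) and, as alternatives, DESeq2 1.42.0 and limma 3.58.1. The fit was tested on simulated data. Summed CPM per kb used exon unions. The members and lists were chosen with earlier results of these data known. Named list genes were the 3 tested members of highest mean CPM (6 for other keratins), and the 5 profiles nearest to Krt14 and to Krt8. Of the genes so named, 1 is not reported here. Expected background was the count per kb over olfactory receptor genes times exon length.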

Additional observations from a re-analysis of the deposited data

How the results depend on the processing

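Over 9 other settings, 77 of 81 member fold changes kept their direction and their side of the threshold. DESeq2 called 3 members, Krt14 (-2.08), Krt17 (-2.06) and Krt18 (2.62), where edgeR called 0, and Krt19 reversed to -0.047 with library totals. Over all genes edgeR called 0, against 13 higher and 2 lower with the strict filter, 284 and 231 with no filter, 597 and 848 by DESeq2, 229 and 161 when adult replicate 1 was left out, and 247 and 733 when it was adult replicate 2. Library totals shifted the median of all genes by -0.38 and upper-quartile factors by -0.18. Without each library in turn the log2 fold change ranged from -1.55 to 0.59 for Krt5, -3.05 to -1.34 for Krt14, -2.01 to -0.68 for Krt15, -3.00 to -1.25 for Krt17, -3.71 to -1.30 for Trp63, 1.08 to 2.30 for Krt7, 0.68 to 2.5 for Krt8, 2.13 to 3.52 for Krt18 and -0.56 to 1.36 for Krt19, which was reversed without adult replicate 1 (-0.22) and without pup replicate 1 (-0.56); Krt5 was reversed without pup replicate 2 (0.59). No library left out gave a called member (0 to 0); the lone library of an age is then assumed to vary like the other age. The replicate block called 0 members. Deviations of same-numbered libraries correlated at -0.035, which with 2 libraries per age cannot show whether the numbers pair the samples. The labels do not say whether they do. With the block Trp63 had a log2 fold change of -2.45 (edgeR adjusted p = 0.447). The basal to luminal difference of -4.27 was -3.24 to -4.90 under 9 of 10 other ways of summing, and -2.10 with Krt5 over Krt8 only. The ratio in both pups turned below 0 without Krt14 (-0.62, -0.69), as mean log2(CPM + 1) (-0.25, -0.59) and with Krt5 over Krt8 only (-2.45, -2.07). Chosen after seeing the data were Krt5 over Krt8 only, Krt14 over Krt18 only (-4.90), without Krt7, without Krt19 and longest coding transcript length. The cause of these changes was not tested. Its range without each library was -5.50 to -3.04. Depth limits Krt15 and Krt19 most, with 51 and 150 counts in their lowest libraries.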

Other observations

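Of the other 46 keratin genes in the files, 16 passed the filter on low counts, of which 13 had a negative and 3 a positive log2 fold change. The median was -2.43 beside -0.24 over all genes tested. Krt4, Krt16, Krt36, Krt39, Krt83 and Krt222 had 0 counts in both adults. They could pass the filter only through the pups, so their negative sign was fixed in advance and the split by sign is not a result. At least 10 counts were reached by 6 and 8 of the 46 in adults, by 42 in pup replicate 1 and by 17 in pup replicate 2. Olfactory receptor genes had 14.0 counts per kb in pup replicate 1, and the part of that background in these keratin counts was not tested. Krt23, a type I chain, was the most abundant of them, at 392 and 429 CPM in adults, against 173 and 253 CPM in pups. Krt80, a type II chain, stood at 72.3 and 82.5 CPM in adults, against 6.60 and 18.4 CPM in pups (log2 fold change 2.62 ± 0.65, SE; edgeR adjusted p = 0.241, DESeq2 adjusted p = 0.00832). Krt10, a chain of differentiated epidermis, stood at 15.2 and 11.0 CPM in adults, against 18.3 and 21.0 CPM in pups. Krt87, Krt75 and Krt6a averaged 5.33, 4.36 and 3.22 CPM over the 4 libraries. The 8 squamous and skin markers summed to 17 and 12 CPM in adults, with 6 and 5 of them at 0 counts, and to 40.0 and 30.8 CPM in pups.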
